A study of Mus musculus with 3 samples.

Results

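A set of 10 genes of the hypoxia pathway was examined in MBT2, a mouse bladder cancer cell line, after knockdown of Asns, which encodes asparagine synthetase. They were given as a list of symbols, matched to Ensembl gene IDs: the oxygen-regulated transcription factor subunit gene Hif1a, the prolyl hydroxylase genes Egln1 and Egln3, and 7 target genes that act outside glycolysis (Bnip3, Ankrd37, Adm, Vegfa, Car9, Ndrg1 and Angptl4). All 10 of the 10 were found among the 57010 genes of the deposited table. RNA-seq libraries came from MBT2 cells stably carrying a scramble plasmid, the shAsns#1 plasmid or the shAsns#2 plasmid, with 1 library per condition. The sample labels give RPMI-1640 with serum and TRIzol, whereas the study's methods give DMEM and a kit, pLKO.1 as the hairpin vector and a vector control. No source used here gives the density of the cultures, their oxygen level or whether a line was a pool or a clone. Hence a difference between the scramble culture and the knockdown cultures that is not due to Asns cannot be told apart from the knockdown.

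In the hypoxia pathway, prolyl hydroxylases use oxygen to modify the alpha subunit of hypoxia-inducible factor (HIF), which the von Hippel-Lindau ubiquitin ligase then marks for degradation. When oxygen is scarce the alpha subunit escapes, pairs with the beta subunit Arnt and binds a short DNA core in its target genes. Because this control acts on the protein, the mRNA of Hif1a need not follow HIF activity, whereas the hydroxylase genes Egln1 and Egln3 are themselves HIF targets.

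To show the DNA that could carry such cores, the 250 bases before the RefSeq transcript start (assembly GRCm38.p6) were searched for ACGTG and for GCGTG, the A form and the G form of the HIF core, on both strands. The RefSeq table used here held 8 of the 10 genes, and Ndrg1 and Angptl4 were not analysed in this way. Of all 32851 windows of that length, 38.6% held at least 1 of the motifs (16.6% ACGTG and 28.2% GCGTG). Overlapping matches were counted as 1 site, and the palindrome CACGTG, which other factors also bind, reads as ACGTG on both strands. Windows of 5 genes are printed 5′ to 3′ on the gene's strand, with every match in capitals. Ankrd37, Bnip3 and Adm are shown because they had the lowest shAsns#2 ratios of the 10 genes, Egln1 as the hydroxylase with sites of both forms, and Hif1a because its mRNA moved least.
Ankrd37, chr8:45999851-46000100, minus strand: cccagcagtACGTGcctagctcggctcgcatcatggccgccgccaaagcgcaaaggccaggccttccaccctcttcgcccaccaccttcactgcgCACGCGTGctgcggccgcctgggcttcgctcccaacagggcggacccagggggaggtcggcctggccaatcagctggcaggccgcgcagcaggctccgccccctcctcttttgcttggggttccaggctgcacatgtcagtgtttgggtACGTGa
Bnip3, chr7:138909507-138909756, minus strand: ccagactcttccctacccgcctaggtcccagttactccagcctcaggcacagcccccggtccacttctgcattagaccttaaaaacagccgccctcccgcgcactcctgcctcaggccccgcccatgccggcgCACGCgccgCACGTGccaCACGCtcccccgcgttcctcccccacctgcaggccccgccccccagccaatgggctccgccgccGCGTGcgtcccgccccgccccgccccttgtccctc
Adm, chr7:110627407-110627656, plus strand: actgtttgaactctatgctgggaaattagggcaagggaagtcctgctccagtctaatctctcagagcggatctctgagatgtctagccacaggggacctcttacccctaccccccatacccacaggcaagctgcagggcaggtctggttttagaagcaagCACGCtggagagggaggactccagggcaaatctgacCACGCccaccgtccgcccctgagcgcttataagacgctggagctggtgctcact
Egln1, chr8:124949255-124949504, minus strand: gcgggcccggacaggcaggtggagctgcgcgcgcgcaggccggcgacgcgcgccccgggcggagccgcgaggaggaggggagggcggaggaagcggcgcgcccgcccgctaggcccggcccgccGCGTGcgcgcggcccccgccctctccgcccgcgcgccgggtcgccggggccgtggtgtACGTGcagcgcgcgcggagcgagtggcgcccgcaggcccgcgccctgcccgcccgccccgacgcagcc
Hif1a, chr12:73907617-73907866, plus strand: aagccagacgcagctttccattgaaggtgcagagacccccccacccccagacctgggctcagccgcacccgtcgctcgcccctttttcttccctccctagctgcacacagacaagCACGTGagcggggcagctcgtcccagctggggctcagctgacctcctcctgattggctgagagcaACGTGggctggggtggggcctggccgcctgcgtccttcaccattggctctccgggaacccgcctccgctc
Bnip3 had 4 sites and Ankrd37 had 3, while 4.56% of all windows had 3 or more. The windows of Egln1, Adm and Hif1a had 2 sites each, and 13.4% of all windows had 2 or more. The window of the second Vegfa start also had 2 sites, but it lay inside the gene, at chr17:46025164-46025413. The windows of Hif1a and Ankrd37 likewise lay wholly within the gene spans given below. Egln3 and Car9 had 1 site each and the first Vegfa start had 0. The Car9 match lay 18 bases before the start and the match of Ankrd37 nearest to its start lay 6 bases before it. A match is a string of letters and no binding was measured in these libraries.

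**Figure D1:**
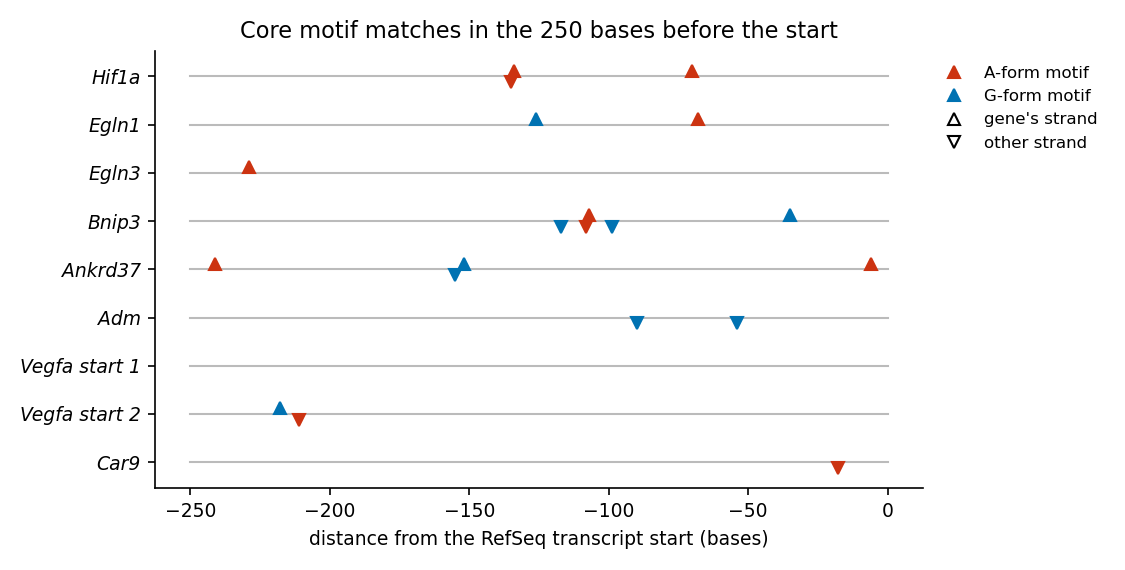
Matches to the 2 HIF core motifs in the 250 bases before each RefSeq transcript start of the 8 genes held by the RefSeq table. The x axis is the distance from the start in bases, upward triangles are matches on the gene's strand, downward triangles matches on the other strand, red the A form and blue the G form. Bnip3 has 4 sites and Ankrd37 has 3, and the first start of Vegfa has 0.

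After rounding, the libraries held 19326826 counts for scramble, 19167852 for shAsns#1 and 22915511 for shAsns#2, and the 14003 genes that reached 10 counts in any library were tested. Levels are CPM, a gene's counts in every 1000000 of the TMM-scaled library size, with 95% Poisson intervals, and ratios carry 95% exact conditional binomial intervals. Both kinds of interval cover counting error only. Asns itself, in the scramble, shAsns#1 and shAsns#2 libraries in that order, stood at 84.4, 33.5 and 27.8 CPM, and fell by edgeR (log2 fold change -1.46, standard error 0.15, adjusted p = 0.00708). Of 16 urothelial markers, 5 passed that filter, and Upk1b, Upk3a, Krt5 and Krt20 had 0 counts in every library, where the limit that a count of 0 allows, taken as 3 counts, is 0.161 CPM in scramble. Epcam had 69, 61 and 105 counts, Krt18 had 47, 50 and 57, and Upk1a had 8, 8 and 12. Krt8, at 23, 69 and 107 counts, and Gata3, at 47, 83 and 127, were higher with both hairpins. Neither was called by edgeR (adjusted p = 0.0671 and 0.166). Most markers of the labelled bladder origin were thus low or at 0 in every library. Summed leukocyte markers lay between 0.21 and 0.482 CPM and endothelial ones between 0.789 and 1.72 CPM. Summed fibroblast markers stood at 659, 711 and 871 CPM, mostly from Col3a1 and Pdgfra. Dcn was the 1 of 6 tested markers called by edgeR, and was higher, where 1.14% of all genes tested were called higher. Another test, limma-voom, did not call Dcn (adjusted p = 0.0522).

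Every one of the 10 genes had a lower level in both knockdown libraries than in scramble. The ratios to scramble, on the log2 scale, ran from -1.46 to -0.05 with shAsns#1 and from -2.11 to -0.20 with shAsns#2. The counting interval of each lay below 0, but for Hif1a with shAsns#1 barely so, with an upper end that rounds to 0.0. Past 1.5-fold, 8 of the 10 were lower with shAsns#1, where 9.02% of all genes tested were lower by that much, and 7 of the 10 were lower with shAsns#2, where 10.9% were. None of the 10 was higher past 1.5-fold, against 9.84% of all genes with shAsns#1 and 11.8% with shAsns#2. At a log2 ratio of 1.5 in size, none of the 10 was lower with shAsns#1 (1.61% of all genes were), and Bnip3, Ankrd37 and Adm were lower with shAsns#2 (1.44% of all genes). The median log2 ratio of the 10 genes was -0.90 with shAsns#1 and -0.95 with shAsns#2, beside 0.00 and 0.00 over all genes tested. The 10 genes were chosen with earlier results of these libraries known, and both sets of ratios use the same scramble library, so the second set is no independent repeat of the first.

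**Figure D2:**
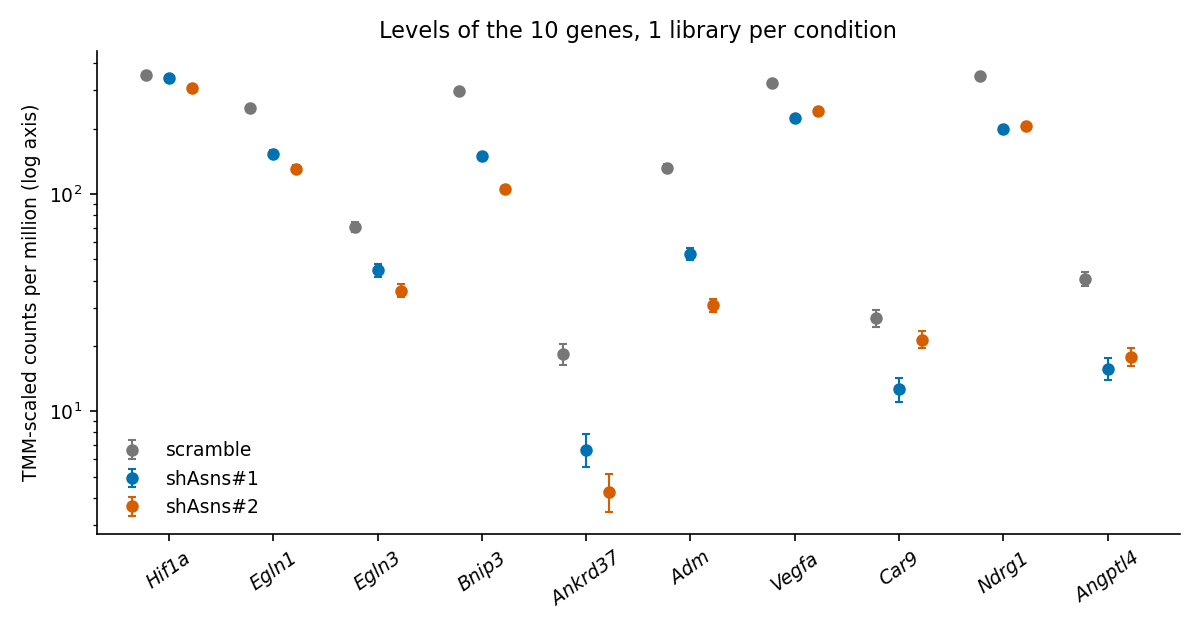
Level of each of the 10 genes in the scramble, shAsns#1 and shAsns#2 libraries, 1 point per library. The y axis is TMM-scaled CPM on a log axis and bars are 95% Poisson intervals. The scramble point is the highest of the 3 for every gene, from 18.3 CPM for Ankrd37 to 354 CPM for Hif1a.

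To compare the arms with a test, the 2 shAsns libraries were set against scramble by edgeR's quasi-likelihood test, which has 1 residual degree of freedom. Its p-values therefore rest on the spread between the 2 hairpins, with the lone scramble library assumed to vary like them. edgeR draws each gene's spread toward that of all genes, here with 6.64 prior degrees of freedom. A gene's own difference between the hairpins thus carries little weight. Of the 10 genes, 7 fell at an adjusted p under 0.05 (Egln1, Egln3, Bnip3, Ankrd37, Adm, Ndrg1 and Angptl4), where 1.51% of all genes tested were called lower. None of the 10 was called higher, as 1.14% of all genes were. Their adjusted p-values by edgeR lay between 0.0103 and 0.0463, close to the threshold. With DESeq2 size factors in place of TMM the same edgeR test called 4 of the 10 lower (0.871% of all genes), and limma-voom called 3 (0.836%). DESeq2 called 6 (1.65% of the 11559 genes to which it gave an adjusted p) and edgeR scaled by total counts called 7 (3.69% of all genes). Over all genes edgeR called 160 higher and 211 lower with TMM, and 740 higher and 517 lower with total counts. Ankrd37 and Angptl4 were called by all 5 tests.

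**Figure D3:**
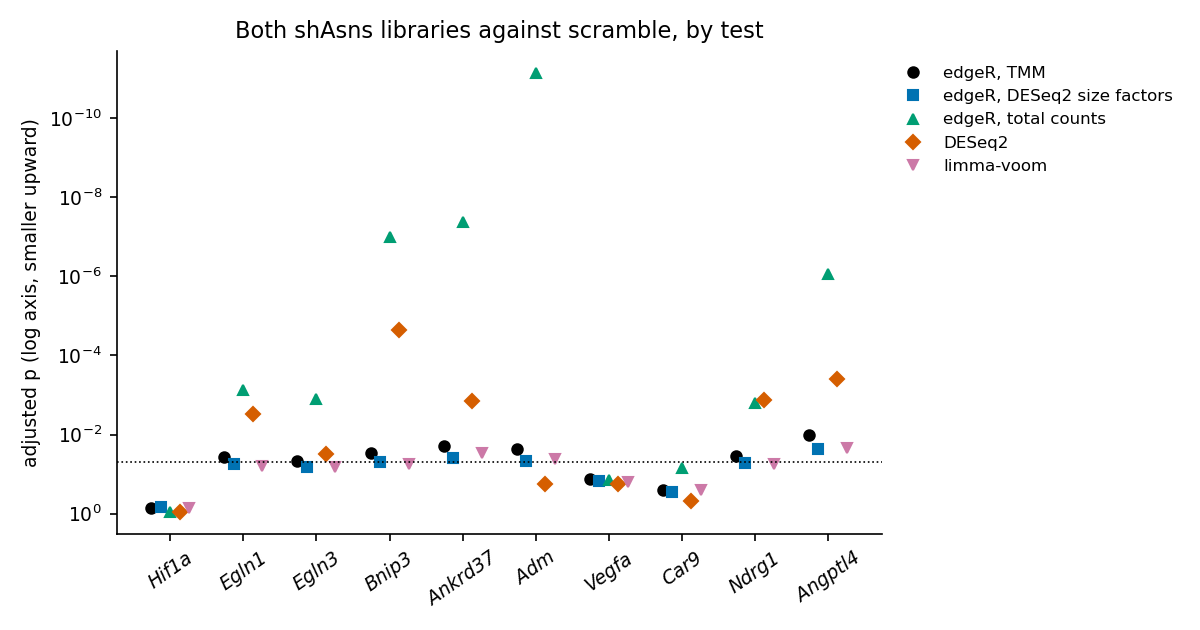
Adjusted p of each of the 10 genes for both shAsns libraries against scramble under 5 tests: edgeR with TMM, DESeq2 size factors or total counts, DESeq2, and limma-voom. The y axis is the adjusted p on a log axis with smaller values upward, and the dotted line marks 0.05. Ankrd37 and Angptl4 lie past the line in all 5 tests and Hif1a, Vegfa and Car9 in none.

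Hif1a (chromosome 12, 73901375 to 73947530, plus strand) encodes the oxygen-regulated alpha subunit. It stood at 354 CPM in scramble (345 to 362), 341 CPM with shAsns#1 (332 to 349) and 307 CPM with shAsns#2 (300 to 314). The shAsns#1 level was thus 96.3% and the shAsns#2 level 86.9% of scramble, and the difference did not pass edgeR (log2 fold change -0.13, standard error 0.16, adjusted p = 0.711). When libraries were scaled by total counts, the median log2 ratio of all genes moved to 0.04 with shAsns#1 and 0.11 with shAsns#2, and the Hif1a ratios to -0.02 and -0.09. The Hif1a ratio to scramble with shAsns#1, -0.05, was smaller in size than most differences between the 2 hairpins themselves. The median size of those differences was 0.13 over the 9874 genes that had 100 or more counts in every library. With shAsns#2 the Hif1a ratio, -0.20, was larger in size than that median. Of the other HIF subunits, Arnt had 2181, 1851 and 2263 counts (adjusted p = 0.268 by edgeR), and Epas1 and Hif3a had at most 3 counts in any library. Hif1a was therefore the only alpha subunit gene of the 3 that passed the count filter, and none of the 3 subunit genes tested, Hif1a, Arnt and Arnt2, was called.

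Among the HIF hydroxylase genes, Egln1 and Egln3 fell by edgeR, while Egln2 and Hif1an did not pass the test. Egln1 (chromosome 8, 124908587 to 124949324, minus strand) encodes the main prolyl hydroxylase of HIF. It had 250 CPM in scramble (243 to 257), 153 CPM with shAsns#1 (148 to 159) and 131 CPM with shAsns#2 (127 to 136). Both knockdown libraries lay below scramble, and shAsns#2 lay below shAsns#1. The fall by edgeR was -0.81 on the log2 scale (standard error 0.15, adjusted p = 0.0369), but limma-voom gave an adjusted p of 0.0622 and edgeR with DESeq2 size factors 0.0545. Egln3 (chromosome 12, 54178981 to 54203860, minus strand), a hydroxylase gene strongly induced by hypoxia in many cells, had 70.5 CPM in scramble (66.8 to 74.5), 44.5 CPM with shAsns#1 (41.5 to 47.6) and 35.9 CPM with shAsns#2 (33.5 to 38.4). It followed the same order of libraries as Egln1. Its fall of -0.81 (standard error 0.16, adjusted p = 0.0463) did not pass limma-voom at 0.0676 or edgeR with DESeq2 size factors at 0.0673.

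Of the 11 tested genes for oxygen sensing and HIF degradation, Egln1 and Egln3 were the 2 called lower by edgeR and none was called higher. Of all genes tested, 1.51% were called lower. Egln2, the third prolyl hydroxylase gene, had 32.6, 31.4 and 31.0 CPM, nearly the same in every library (adjusted p = 0.847). Hif1an, the asparaginyl hydroxylase that blocks the HIF activation domain, had 47.3, 42.2 and 40.9 CPM (adjusted p = 0.48), and Vhl, the substrate receptor of the ligase, had 575, 476 and 664 counts (adjusted p = 0.465). The ligase partners Elob, Eloc, Cul2 and Rbx1 had adjusted p-values by edgeR between 0.569 and 0.87. Siah1a and Siah2, ligases for the hydroxylases, had 0.229 and 0.97. Of the 6 tested coactivators and competitors of HIF, none was called, and the list's median log2 ratios were 0.01 and 0.11.

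Among the targets, Bnip3, Ankrd37 and Adm fell most with shAsns#2. Bnip3 (chromosome 7, 138890836 to 138909519, minus strand) encodes a mitochondrial receptor that directs mitochondria to autophagy. It had 297 CPM in scramble (290 to 305), 150 CPM with shAsns#1 (144 to 155) and 105 CPM with shAsns#2 (101 to 109). The log2 ratios were -0.99 (-1.05 to -0.92) and -1.51 (-1.58 to -1.44), and the 3 libraries did not overlap within counting error. Bnip3 fell by edgeR (log2 fold change -1.23, standard error 0.20, adjusted p = 0.0286) and by DESeq2 (2.31e-05), but not by limma-voom (0.0547). Its relative Bnip3l, also a mitophagy receptor, had a mean log2 ratio of -0.22 and did not pass (adjusted p = 0.43).

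Ankrd37 (chromosome 8, 45996902 to 46005707, minus strand), an ankyrin-repeat gene known as a HIF target, had the lowest counts of the 10. It had 341 counts in scramble, 126 with shAsns#1 and 101 with shAsns#2, or 18.3 CPM (16.4 to 20.3), 6.63 CPM (5.52 to 7.89) and 4.23 CPM (3.44 to 5.14). Those levels gave log2 ratios of -1.46 (-1.77 to -1.16) and -2.11 (-2.45 to -1.79), so that 0.764% of all genes tested had a lower mean ratio. Ankrd37 fell by -1.76 on the log2 scale in edgeR (standard error 0.26, adjusted p = 0.0199) and passed limma-voom (0.0297) and DESeq2 (0.00143) as well. Ankrd37 shares 57 exonic bases with Ufsp2 on the other strand, which had 1394, 1313 and 1449 counts, and 349 with Lrp2bp, which had at most 3 counts. Whether the counting used strand is not given by any source used here, and reads of the shared stretches could have been counted to either gene. The genes of the table that overlap Hif1a, Bnip3, Adm and Ndrg1 on the other strand had at most 5.02 deposited counts in any library. The deposited counts of Hif1a, Bnip3 and Car9 were not whole in any of the 3 libraries.

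Adm (chromosome 7, 110627661 to 110629820, plus strand) encodes adrenomedullin, a secreted peptide that widens vessels. It stood at 132 CPM in scramble (127 to 137), 52.8 CPM with shAsns#1 (49.6 to 56.2) and 30.7 CPM with shAsns#2 (28.5 to 33.0). Both knockdown libraries were below scramble, with log2 ratios of -1.32 (-1.43 to -1.21) and -2.10 (-2.22 to -1.98). Adm fell by -1.66 in edgeR (standard error 0.26, adjusted p = 0.0238). The limma-voom test also called it (0.0414), while DESeq2 did not (0.182). The levels with the 2 hairpins were also apart from each other, by a log2 difference of 0.78 in size.

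Angptl4 and Ndrg1 fell to levels that were within counting error of each other with the 2 hairpins. Angptl4 (chromosome 17, 33773750 to 33781830, minus strand) encodes a secreted inhibitor of lipoprotein lipase. It had 40.6 CPM in scramble (37.7 to 43.6), 15.6 CPM with shAsns#1 (13.9 to 17.5) and 17.8 CPM with shAsns#2 (16.1 to 19.6). Its log2 ratios were -1.38 (-1.58 to -1.19) and -1.19 (-1.36 to -1.02), and it had the smallest adjusted p by edgeR of the 10 genes (log2 fold change -1.28, standard error 0.16, adjusted p = 0.0103). Ndrg1 (chromosome 15, 66929318 to 66969640, minus strand), a stress-responsive gene of differentiation and growth control, had 351 CPM in scramble (342 to 359), 199 CPM with shAsns#1 (192 to 205) and 206 CPM with shAsns#2 (200 to 211). The knockdown levels overlapped within counting error and both were below scramble. Its fall of -0.80 (standard error 0.14, adjusted p = 0.0349 by edgeR) did not pass limma-voom at 0.0544 or edgeR with DESeq2 size factors at 0.0511.

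Vegfa and Car9 were lower in both knockdown libraries but did not pass edgeR. Vegfa (chromosome 17, 46016993 to 46032369, minus strand), the gene of the main growth factor for vessels, had 323 CPM in scramble (315 to 331), 224 CPM with shAsns#1 (218 to 231) and 240 CPM with shAsns#2 (234 to 247). The log2 ratios of -0.52 (-0.58 to -0.47) and -0.43 (-0.48 to -0.37) lay outside counting error, and the estimate from edgeR was -0.47 (standard error 0.15, adjusted p = 0.134). Car9 (chromosome 4, 43506966 to 43513729, plus strand) encodes a membrane carbonic anhydrase that handles acid at the cell surface. It had 26.8 CPM in scramble (24.5 to 29.3), 12.6 CPM with shAsns#1 (11 to 14.3) and 21.4 CPM with shAsns#2 (19.6 to 23.4). Only the shAsns#1 library was lower past 1.5-fold, with a log2 ratio of -1.09 (-1.32 to -0.87) against -0.32 (-0.50 to -0.14) for shAsns#2. The edgeR adjusted p of Car9 was 0.249 (log2 fold change -0.65, standard error 0.28). The antisense gene Gm12454 overlaps Car9 over 214 exonic bases and had at most 13.43 deposited counts, against 499.57, 238.8 and 511.88 for Car9.

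**Figure D4:**
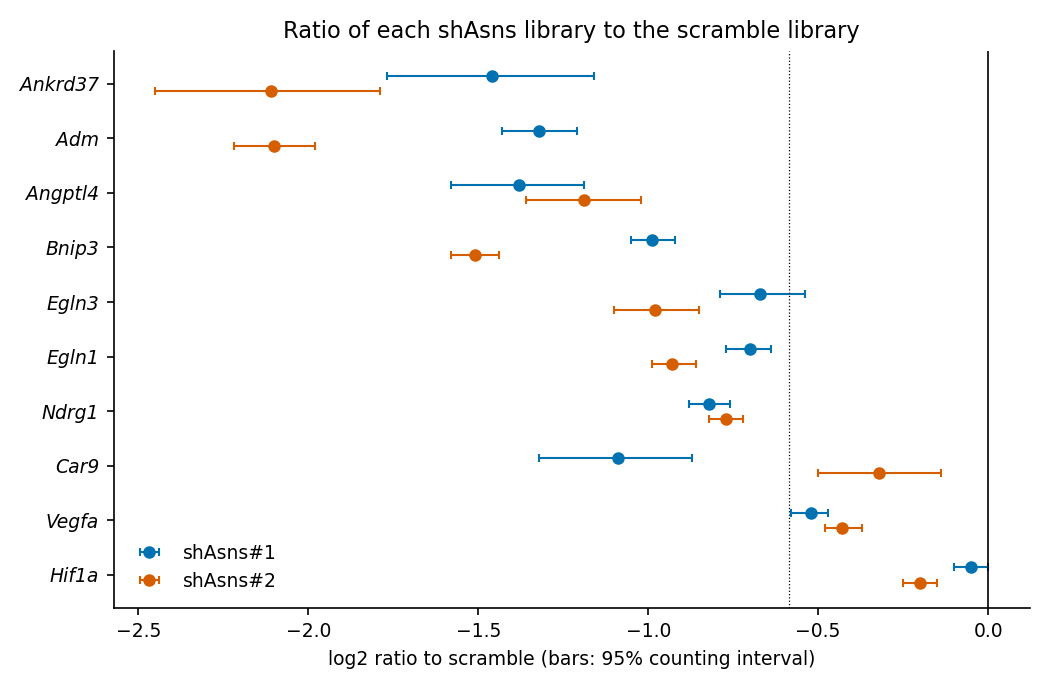
Log2 ratio of each knockdown library to the scramble library for the 10 genes. The x axis is the log2 ratio with 95% counting intervals as bars, blue is shAsns#1, orange is shAsns#2 and the dotted line marks a 1.5-fold lower level. Ankrd37, Adm and Bnip3 lie lower with shAsns#2 and Car9 lies lower with shAsns#1.

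The hairpins were next compared with each other, again with 1 library each and no test. Adm had a log2 ratio of shAsns#2 to shAsns#1 of -0.78 (-0.92 to -0.65), Ankrd37 of -0.65 (-1.04 to -0.26) and Bnip3 of -0.52 (-0.60 to -0.44). Past 1.5-fold, Adm and Ankrd37 were thus lower with shAsns#2, where 5.33% of all genes tested were. Car9 was the 1 gene of the 10 that was higher past 1.5-fold, at 0.77 (0.54 to 1.00) or 1.70-fold, where 6.54% of all genes were. Over the same 9874 genes the hairpins differed by 0.36 or less for 90% of genes, and the share with a smaller difference was 99.5% for Adm, 99.4% for Car9, 98.6% for Ankrd37 and 96.7% for Bnip3. Hif1a, Egln1 and Egln3 were also lower with shAsns#2 outside counting error, with log2 ratios of -0.15, -0.23 and -0.31. Vegfa was slightly higher (0.10, interval 0.04 to 0.16), and the intervals of Ndrg1 and Angptl4 contained 0. The Asns transcript itself stood at 33.5 CPM with shAsns#1 and 27.8 CPM with shAsns#2.

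Levels per kilobase of the deposited gene length allowed the genes to be ordered within a library. In scramble Bnip3 was highest at 169 CPM per kilobase, with Vegfa at 164, Ndrg1 at 121, Adm at 94.8, Hif1a at 74.8 and Egln1 at 69.5. Egln3 followed at 26.5, Ankrd37 at 19.7, Car9 at 13.2 and Angptl4 at 12.3. The neighbours Bnip3 and Vegfa, and Car9 and Angptl4, overlapped in their counting intervals in scramble, and the other neighbours did not. With shAsns#2 the order opened with Vegfa at 122, Ndrg1 at 71.2 and Hif1a at 65.0, so that Bnip3 at 59.6 stood below Hif1a. Ankrd37 was the lowest of the 10 at 4.56, with an interval that overlapped that of Angptl4 at 5.38. With shAsns#1 Vegfa was again highest at 114, followed by Bnip3 at 85.3 and Hif1a at 72.1.

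Beyond the 10 genes, 8 of 32 other tested HIF targets outside glycolysis fell by edgeR, out of 40 listed, and none rose. Of all genes tested, 1.51% were called lower. Their median log2 ratios were -0.44 and -0.62, and 28 of the 32 lay below 0 with shAsns#1 and 30 with shAsns#2, beside 7000 and 7071 of the 14003 genes tested. By limma-voom 4 of the 32 were lower (0.836% of all genes were), and by edgeR with DESeq2 size factors also 4 (0.871%). By DESeq2 10 were lower (1.65% of the genes to which it gave an adjusted p), and by edgeR with total counts 16 (3.69%). Bhlhe40, a transcriptional repressor gene, had 96.4, 49.3 and 38.1 CPM (adjusted p = 0.0185), and Loxl2, which encodes an enzyme that crosslinks collagen, had 329, 158 and 150 CPM (adjusted p = 0.0115). Ddit4, an inhibitor of mTORC1 signalling, had 229, 131 and 88.2 CPM (adjusted p = 0.0488), and was not called by limma-voom (0.0786). Ier3, an early stress gene, had 263, 147 and 92.7 CPM and did not pass (adjusted p = 0.0557). These genes showed the 3 libraries in the same order as Adm and Bnip3.

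Of 21 glycolytic HIF targets tested, 1 fell by edgeR, where 1.51% of all genes did, and none rose. It was Pdk1, the kinase that restrains pyruvate dehydrogenase, with 221, 139 and 117 CPM (adjusted p = 0.04 by edgeR). The medians of the list were -0.22 and -0.58. Slc2a1, the main glucose transporter gene, had 359, 220 and 134 CPM (adjusted p = 0.0829), and the lactate exporter gene Slc16a3 had 301, 207 and 162 CPM (adjusted p = 0.0815). Whether the non-glycolytic targets differ from the glycolytic ones was not tested. Past 1.5-fold against scramble, 3 of the 21 were lower and 2 higher with shAsns#1, where 9.02% of all genes were lower and 9.84% higher. With shAsns#2, 10 of the 21 were lower and 1 higher, where 10.9% of all genes were lower and 11.8% higher.

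**Figure D5:**
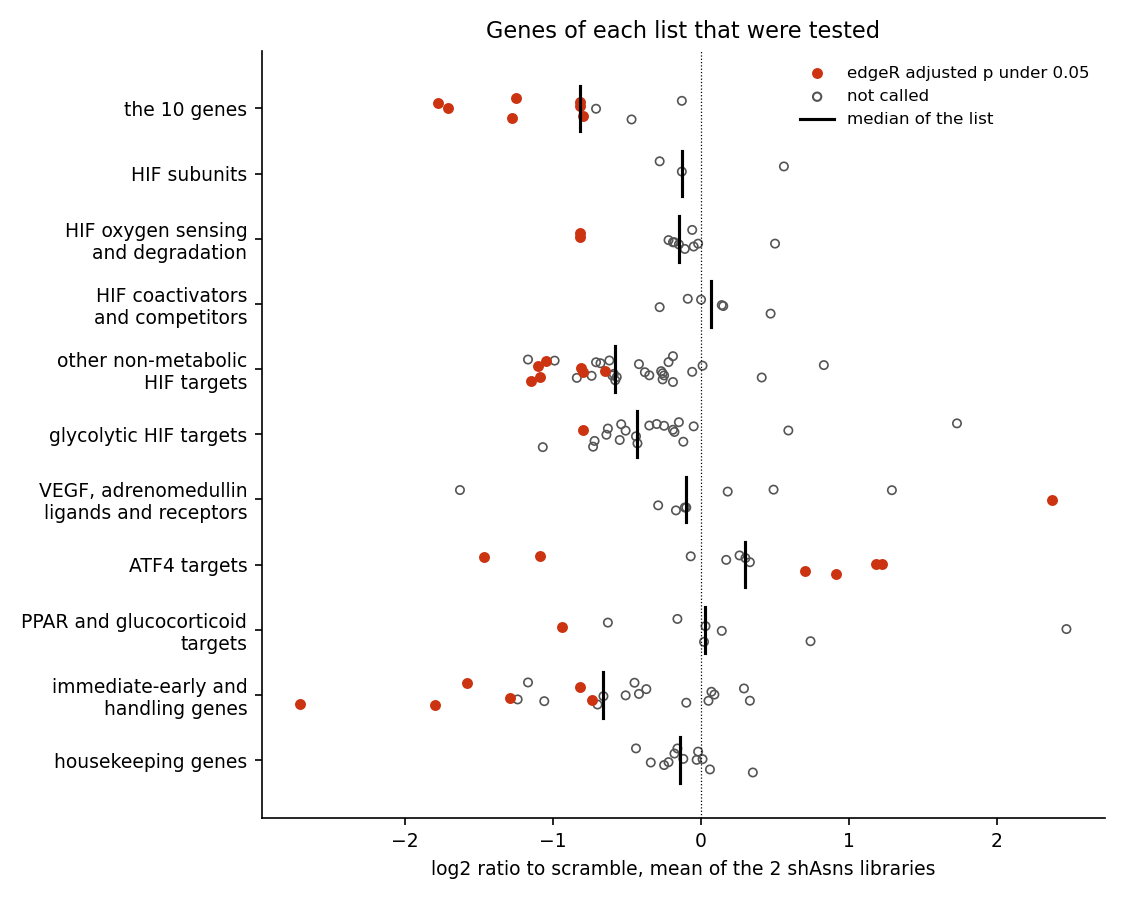
Log2 ratio to scramble, averaged over the 2 shAsns libraries, for each tested gene of the 10 and of 10 other lists. The x axis is the log2 ratio, each point is a gene, filled points passed edgeR at an adjusted p under 0.05, and the black bar is the median of the list. The 7 filled points of the 10 genes lie below 0, and no gene of the HIF subunit, coactivator and housekeeping lists is filled.

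Among the receptors and relatives of the 10 genes, Calcrl and Angptl6 rose by edgeR and none fell. By the same test, 1.14% of all genes were called higher and 1.51% lower. Calcrl, which encodes a part of the receptor that adrenomedullin uses, had 2.25, 11.3 and 12.3 CPM, or 42, 215 and 293 counts. It rose by edgeR (log2 fold change 2.39, standard error 0.25, adjusted p = 0.00708) and was the 1 called gene of the 9 tested ligands and receptors. Of its partner genes Ramp1, Ramp2 and Ramp3, only Ramp2 passed the count filter, and it was not called (adjusted p = 0.99 by edgeR). Flt1, a VEGF receptor gene, had 28, 61 and 102 counts (adjusted p = 0.125 by edgeR). The VEGF coreceptor gene Nrp1 had 66, 24 and 24 counts (adjusted p = 0.0792 by edgeR). Its much more abundant relative Nrp2 went the other way, with 10328, 14323 and 19206 counts (adjusted p = 0.193 by edgeR). The relatives of Ndrg1, Bnip3, Car9 and Angptl4 had 7 tested genes, of which Angptl6 was called by edgeR (14.3, 25.5 and 27.7 CPM, adjusted p = 0.0385) but not by limma-voom (0.068). Angptl2 had 423, 319 and 325 CPM (adjusted p = 0.214). PPAR factors and glucocorticoids also induce Angptl4, and of 8 tested genes that they induce, Cpt1a fell (127, 64.0 and 69.0 CPM, adjusted p = 0.0146), none rose, and the medians were 0.04 and 0.00.

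Other gene groups that share the scramble library moved beside the hypoxia genes. Immediate-early and handling genes, which respond when cells are detached or disturbed, had medians of -0.66 and -0.72. By edgeR 6 of 21 tested fell, where 1.51% of all genes did, and none rose. Dusp1, a phosphatase gene of that group, had 38.6, 12.8 and 12.9 CPM (adjusted p = 0.00573). The summed level of the whole list was 1460, 1030 and 1070 CPM, highest in scramble. Targets of ATF4, the factor of the amino acid response, had 4 genes called higher and 2 lower by edgeR of 11 tested. Of all genes tested, 1.14% were called higher and 1.51% lower. Trib3 had 91.0, 192 and 235 CPM (adjusted p = 0.0168 by edgeR). The 2 lower genes were Ddit4, also listed among the HIF targets, and Asns, whose fall was set by the design as the target of both hairpins. The 12 housekeeping genes had 0 calls and medians of 0.04 and -0.23. Of these, 5 lay below 0 with shAsns#1 and 11 with shAsns#2. Past 1.5-fold, 0 were lower with shAsns#1 and 2 with shAsns#2, where 9.02% and 10.9% of all genes were. Gapdh and Pgk1 were also on the list of glycolytic HIF targets. The part of culture handling or of the amino acid response in the levels of the 10 genes was not tested. Library scaling changed the levels little, since the median log2 ratios of the 10 genes were -0.87 and -0.84 with total counts and -0.91 and -0.95 with DESeq2 size factors. Since the RNA came from bulk cultures, fewer cells expressing a gene and less RNA per cell cannot be told apart.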

How the data were processed

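RNA from MBT2 cells of 3 conditions was sequenced, 1 library each. The authors deposited estimated counts per Ensembl gene, unscaled, of which 32.6% to 33.0% of those above 0 were not whole. The submitters' processing notes name Bowtie 0.12.2, with no role. Neither the counter nor the build or annotation behind the files is stated in the sources used here. The estimated counts were rounded. Names and positions came from GENCODE M21 (GRCm38) for 52029 of 57010 IDs, and the others held 1.46% of the counts. Genes with 10 or more counts in any library were scaled by TMM and tested by edgeR 4.0.16 (estimateDisp, glmQLFit, glmQLFTest, Benjamini-Hochberg over 14003 genes, adjusted p under 0.05), with a biological coefficient of variation of 11.58%. The edgeR fit was tried on simulated counts that gave every gene this same coefficient of variation. That trial does not cover a spread between the hairpins that differs from gene to gene. Log2 ratios used a prior count of 0.5. Totals were 19167852 to 22915511 counts, and the Poisson and Clopper-Pearson intervals used the TMM-scaled sizes of 18657680 to 23891612.

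The members and the gene lists were chosen with earlier results of these data known. Named were the members, Asns, every HIF subunit and oxygen-sensing gene, and up to 4 genes of each other list with the largest mean ratio among those with 50 or more counts in a library, some of which are left out. Bnip3l was named after its value was seen. Alternative settings were scaling by total counts or DESeq2 size factors, other filters and thresholds, a prior count of 2, unrounded counts, each hairpin left out in turn, DESeq2 1.42.0 and limma 3.58.1 (voom). Values and figures were made in Python 3.11.15 with matplotlib 3.10.9, pandas 2.3.3, scipy 1.17.1 and numpy 2.4.6, and the fits in R 4.3.3. Columns of gene ontology text were not used, and the study's other experiments were not analysed here.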

Additional observations from a re-analysis of the deposited data

Results flagged for a closer look

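Ppia, the cyclophilin A gene and 1 of the 12 housekeeping genes set beside the hypoxia genes, had log2 ratios to scramble of 0.09 with shAsns#1 and -0.60 with shAsns#2, with 20015, 21720 and 16953 counts in the scramble, shAsns#1 and shAsns#2 libraries. It stood out because the counting intervals of its ratios lay on opposite sides of 0. The difference between the hairpins was not tested, since each had 1 library, and Ppia did not pass edgeR for both hairpins together (adjusted p = 0.73). None of the 10 hypoxia genes had ratios of opposite sign.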

How the results depend on the processing

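Over all genes, edgeR with TMM called 371, against 209 with DESeq2 size factors, 172 by limma-voom, 1556 with no filter on low counts, 1257 with total counts and 892 at an adjusted p under 0.10. With total counts the calls split into 740 higher and 517 lower, against 160 and 211 with TMM. The prior degrees of freedom that edgeR estimated were 6.64 with TMM, 5.62 with DESeq2 size factors and 82.8 with total counts. Of the 10 hypoxia genes, 7 were called with TMM, 4 with DESeq2 size factors and 3 by limma-voom. Egln3 was also lost with unrounded counts (adjusted p = 0.0549), and Vegfa and Car9 passed edgeR without the filter (0.0487 and 0.0103). No log2 fold change of the 10 reversed in any of the alternatives run. Among their values with a test, 9 lost a call and 2 gained one, and leaving out each hairpin in turn gave values with no test. Against scramble, 1263 genes were lower and 1378 higher past 1.5-fold with shAsns#1. With 50 or more counts asked for, these were 653 and 644, and past 2-fold 509 and 694. With shAsns#2, 1520 lower and 1649 higher genes became 953 and 844, and 521 and 798 past 2-fold. Past 2-fold, 4 of the 10 genes were lower with shAsns#1 and 4 with shAsns#2, against 8 and 7 past 1.5-fold. No paired analysis was possible because each condition had 1 library. Levels of Ankrd37, with 101 to 341 counts, had the widest counting intervals of the 10 ratios.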
